A study of Homo sapiens with 28 samples.

Results

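The subunit genes of RNA polymerases I, II and III were followed through 7 times after doxycycline in a human neuroblastoma line with inducible MYCN. Members were all genes whose platform symbol starts with POLR1, POLR2 or POLR3 and a further letter, taken from probe sets that name a single gene, with the brightest probe set standing for each gene. The rule found 32 genes among the 19777 with a single-gene probe set. All 32 passed the filter on low signals that left 11866 genes for testing. By textbook assignment, 6 genes belong to RNA polymerase I alone, 9 to RNA polymerase II alone and 9 to RNA polymerase III alone, 2 are shared by polymerases I and III, and 5 are shared by all 3. The 9 genes of polymerase II include POLR2J4, which RefSeq lists as a transcribed pseudogene related to POLR2J. The remaining gene, POLR1HASP, is an antisense transcript of the POLR1H locus, so it too matches the symbol rule without being a subunit. POLR2J, POLR2J2 and POLR2J4 are close copies whose probes may share signal, so their values are uncertain, and so is the separation of POLR1H from its antisense partner.

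SK-N-AS is an established neuroblastoma cell line. In its derivative SK-N-AS-tet-MYCN, called the MYCN line here, doxycycline switches on MYCN from a tet-regulated construct, and 21 arrays cover 3 replicates at each of the times 4, 8, 24, 48, 96 and 192 and at time 0, with the unit of time not stated in the labels. The mock line, SKNAS-pcDNA6TR, carries the tet repressor vector, was likewise given doxycycline, and has 1 array at each of the same 7 times. Culture was in DMEM with serum for both lines, and the labels used here do not say whether either is a single clone. Nothing in the labels says that replicates came from separate cultures, so p-values measure the spread between these arrays, which may be technical, and the number of arrays limits the precision. Values are MAS5 signals on a linear scale, with a trimmed mean near 100 on each array, changes are differences of log2 signal with a standard error (SE), and all p-values are two-sided, from limma, adjusted by Benjamini-Hochberg over all 11866 genes and called under 0.05. Signals of different probe sets depend on their probes, so no gene's signal is set against another's.

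The arrays carried the induction that their labels describe. MYCN read 2168 ± 820 at time 4 and 3193 ± 112 at time 192, against 84.0 ± 17.5 at time 0 of the MYCN line (SD, n = 3 each), and 1.6 to 3 on the 7 mock arrays. The lines also differed apart from MYCN. Of 8 adrenergic neuroblastoma markers 6 had a single-gene probe set and 4 of these passed the signal filter, the summed signal of the 6 being 378.7 to 600.0 in the MYCN line against 1923 to 2373 in the mock line, and TH and DBH lay near background in both. All 7 mesenchymal markers passed, with sums of 8799 to 12432 in the MYCN line against 8503 to 9750 in the mock line. Epithelial markers stayed at a summed signal of 17.8 or less in either line, and leukocyte markers summed to 12.7 to 49.1 in the MYCN line against 215.9 to 282.3 in the mock line, nearly all of it PTPRC. Whether these differences between the lines bear on the comparisons of the lines was not tested. The spiked hybridisation control bioD split the arrays into replicates 1 and 2 of the MYCN line, and replicate 3 together with the mock line. Its 3' probe set read 1544 to 1941 in the former and 2322 to 2770 in the latter. The gap was narrower on its 5' probe set, at 1566.3 to 1948.2 and 2093.9 to 2409.5, and the split was taken on the mean log2 of both. The labels give no batch, so this split, used as a hybridisation batch, is an inference from the spike signal.

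RNA polymerase I transcribes the large ribosomal RNA precursor, RNA polymerase II the messenger RNAs, and RNA polymerase III the transfer RNAs, the shortest ribosomal RNA and other short RNAs. Each enzyme is built around a pair of large catalytic subunits, an assembly platform and a set of small common subunits, to which polymerases I and III add subunits that resemble general transcription factors of polymerase II. Polymerase III holds a further subunit that comes as either of a pair of paralogues: POLR3G, known from pluripotent and tumour cells, or POLR3GL, which is present in most tissues. MYC family proteins are known to raise transcription by polymerases I and III, and the E-box CACGTG is the sequence they bind best.

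Promoter windows are shown for POLR1G, POLR3E and POLR3A, members that rose and hold a CACGTG near the annotated start, and for POLR3GL, which fell and has none in its window. Each run covers 140 bases before to 10 bases after the annotated start on the gene's strand, from RefSeq on build GRCh38.p14, and capitals mark CACGTG, which reads the same on both strands.
POLR1G (chr19:45406504-45406653, plus strand): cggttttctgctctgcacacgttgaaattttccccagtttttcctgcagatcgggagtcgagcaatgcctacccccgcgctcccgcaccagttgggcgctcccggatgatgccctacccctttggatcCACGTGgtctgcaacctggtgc
POLR3E (chr16:22297269-22297418, plus strand): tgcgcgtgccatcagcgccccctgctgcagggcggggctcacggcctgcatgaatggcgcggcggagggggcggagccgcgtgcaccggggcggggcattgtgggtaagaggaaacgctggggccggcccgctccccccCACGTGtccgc
POLR3A (chr10:78029506-78029655, minus strand): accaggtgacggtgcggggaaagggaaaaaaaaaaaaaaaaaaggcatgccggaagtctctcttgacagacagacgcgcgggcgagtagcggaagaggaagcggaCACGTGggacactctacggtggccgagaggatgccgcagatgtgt
POLR3GL (chr1:145964550-145964699, plus strand): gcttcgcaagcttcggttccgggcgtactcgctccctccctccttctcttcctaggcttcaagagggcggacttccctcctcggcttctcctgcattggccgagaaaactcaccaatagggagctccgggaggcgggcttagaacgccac
The match begins 12 bases before the start in POLR1G, 1 base before it in POLR3E and 35 bases before it in POLR3A. In windows of 250 bases before to 50 after the start, 23 of the 32 members had a sequence and 4 held the motif, the other being POLR3C in 1 of its 2 windows, 196 bases before the start. The motif was held by 7.26% of all 35116 windows of this length and by 8.77% of the 27305 genes they belong to. POLR1B, POLR1C, POLR1H, POLR3B, POLR3F and POLR3K, which also rose at time 192, had no match in theirs. A match is a run of letters and no measurement of binding, and POLR1E, POLR1HASP, POLR2G, POLR2I, POLR2J, POLR2J4, POLR2K, POLR3D and POLR3G are named only.

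The members that rose most belonged to polymerases I and III. At time 192 against time 0 of the MYCN line, 10 members rose and 2 fell, where 11.6% of all genes tested rose and 14.1% fell (25.8% in either direction). By class, 3 of 6 genes of polymerase I alone rose and 6 of 9 of polymerase III alone rose with 1 lower, whereas of polymerase II alone 1 of 9 fell and none rose, 1 of the 2 genes shared by polymerases I and III rose, and 0 of the 5 common subunits were called (1 had an unadjusted p under 0.05). Under the replicate block, which called 35% of all genes, POLR2I of polymerase II (0.30, adjusted p 0.00962) and the common subunit POLR2F (0.45, adjusted p 0.0478) also rose. The median log2 change was 0.37 for polymerase I alone, 0.08 for polymerase II alone and 0.43 for polymerase III alone, against -0.03 for all genes tested. It was 0.22 for the pair shared by polymerases I and III and -0.04 for the 5 common subunits. In the mock line the medians at time 192 were 0.00, 0.00 and -0.14 for polymerases I, II and III, from 1 array at each time. The classes were not tested against each other. In bulk RNA, a change in the share of cells that express a gene and a change in RNA per cell cannot be told apart. Markers moved between the same times: the mesenchymal sum was 9214 to 9908 at time 192 against 10906 to 12108 at time 0, with 1 of 7 markers higher and 3 lower, and the adrenergic sum was 506.1 to 600.0 at time 192 against 475.2 to 512.0 at time 0, with 1 of 4 tested markers higher and 1 lower. The leukocyte sum was 12.7 to 20.6 at time 192 against 19.0 to 49.1 at time 0. Its 1 tested marker, PTPRC, fell (log2 change -2.99, adjusted p 0.00274 from limma). PTPRC read 2.77 ± 1.70 at time 192 (SD, n = 3), below the filter level of 12.8, so the size of its fall is uncertain. The part of these marker changes in the result was not tested. Counts were sensitive to replicate 2: without it 5 members in place of 12 were called at time 192. The share of all genes called without it is not given here, so this loss need not be particular to the members.

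**Figure D1:**
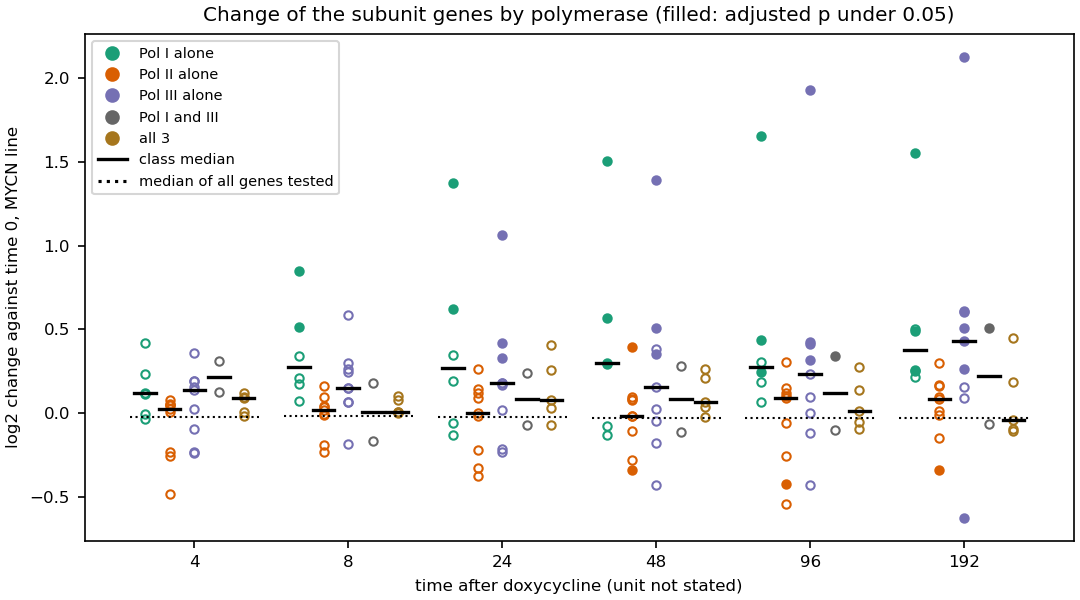
Log2 change of each subunit gene against time 0 in the MYCN line (vertical axis, log2 units) at the 6 later times (horizontal axis, unit not stated), by polymerase class; filled points have an adjusted p under 0.05, bars are class medians and the dotted line is the median of all genes tested. At time 192 all 6 polymerase I genes lie above 0, POLR3G stands highest at 2.13 and POLR3GL lowest at -0.62.

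The calls built up over the course. At time 4 no member was called by limma, where 0.00843% of all genes were, and 3 had an unadjusted p under 0.05. At time 8, 2 members rose, POLR1B and POLR1G, both of polymerase I, where 0.767% of genes were called, 0.59% higher and 0.177% lower, and both calls were lost when any single array of those 2 times was left out. At time 24, 5 members rose, where 7.18% of genes were called, 3.91% higher and 3.27% lower. By time 48 the numbers were 7 higher and 1 lower, where 14.7% of genes were called, 7.04% higher and 7.67% lower. By time 96 they were 8 higher and 1 lower, where 23.4% of genes were called, 10.3% higher and 13.2% lower. Arrays were also counted without a p-value. All 3 arrays lay above all 3 of time 0 in 2 members at time 4 and below them in 2, where 4.14% of all genes were wholly above and 7.28% wholly below. By time 8 the numbers were 7 above and 0 below (7.25% and 8.82% of genes), by time 24 they were 7 and 1 (12% and 14.9%), and by time 48 they were 9 and 1 (12.3% and 15%). By time 96 they had become 9 and 2 (15.7% and 19.4%), with 12 and 3 (16.5% and 19.6%) by time 192. Over all times 13 members were called at least once, 11 higher and 2 lower, and the other 19 at no time. The share of all genes called at least once was not counted, so these numbers have no background to be read against. The moderated F-test over the 6 contrasts called 9 members, where it called 25.4% of genes.

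**Figure D2:**
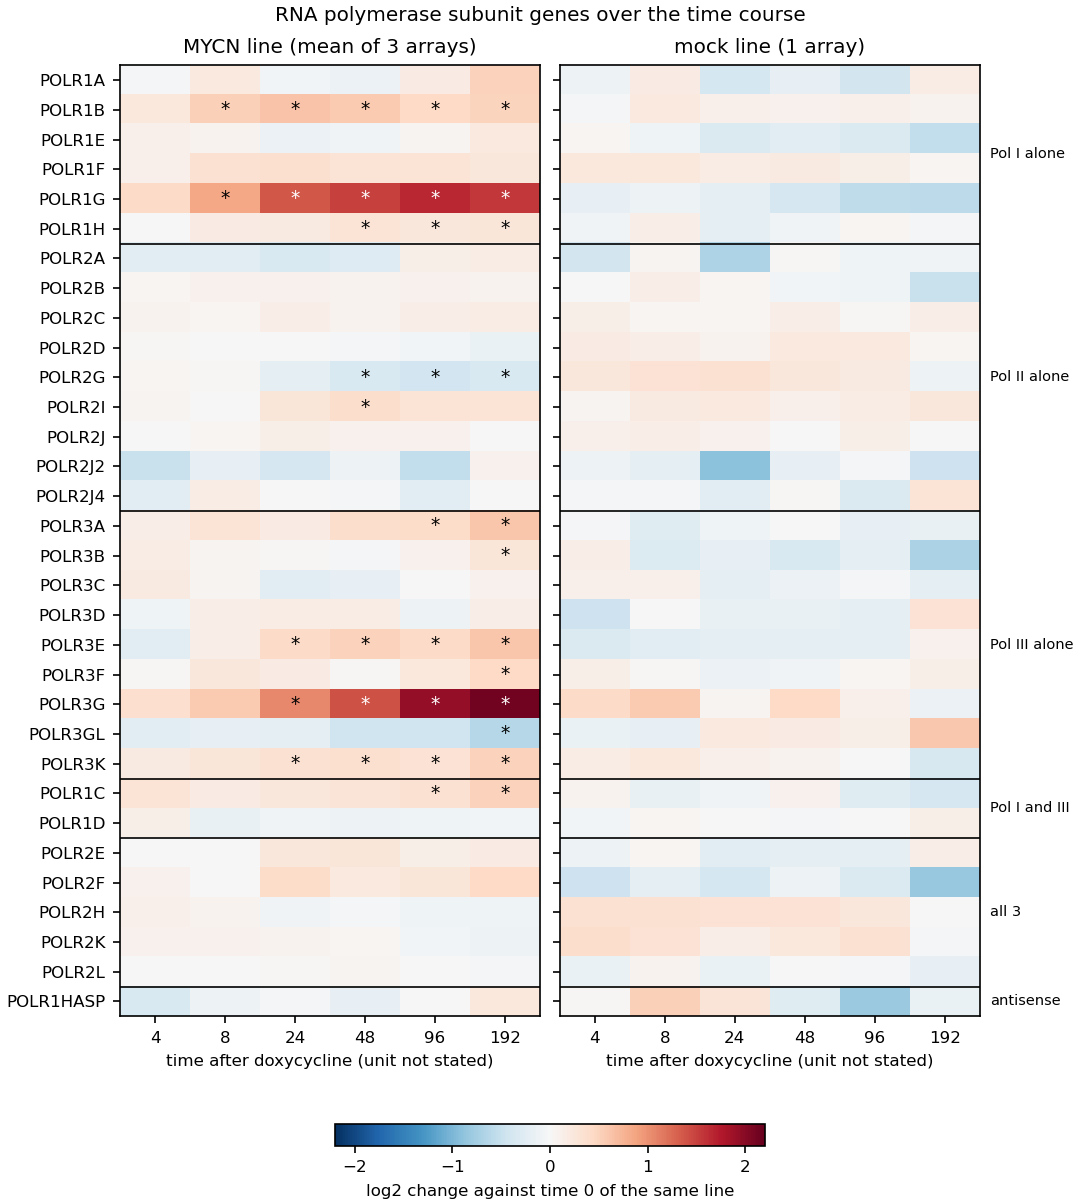
Log2 change against time 0 of the same line for the 32 genes (rows, grouped by polymerase) at 6 times (columns, unit not stated), as the mean of 3 arrays in the MYCN line on the left and from 1 array in the mock line on the right; asterisks mark an adjusted p under 0.05 in the MYCN line. POLR1G and POLR3G deepen with time in the MYCN line, with values of 1.55 and 2.13 at time 192 against -0.58 and -0.14 in the mock line.

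Among the genes of polymerase I, POLR1G and POLR1B were called at time 8, when the replicate block also called POLR3G. POLR1G, which forms a dimer with POLR1E on the surface of polymerase I, read 609.7, 478.0 and 658.5 at time 192, against 182.7, 171.3 and 242.5 at time 0. It had already reached 442.9, 560.7 and 531.9 at time 24 and 634.3, 752.5 and 492.5 at time 96. The arrays overlapped those of time 0 at time 4, where they read 232.8, 232.7 and 335.2, and lay wholly above them from time 8 on. The log2 change was 0.85 at time 8, then 1.37 at time 24 and 1.65 at time 96. By time 192 it was 1.55 (SE 0.19, 2.94-fold, adjusted p 1.31e-05). Its calls from time 24 to time 192 held under all 17 alternatives run. POLR1G has a single probe set, so the alternatives on the choice of probe set used the same signals for it. The mock line gave 141.6 for it at time 192 against 211.3 at time 0, a change of -0.58.

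POLR1B, the large subunit that pairs with POLR1A at the active centre, was also called from time 8 on. It read 627.4, 758.4 and 615.1 at time 8 and 632.8, 688.3 and 635.2 at time 192, against 482.5, 467.3 and 443.8 at time 0. The arrays did not overlap time 0 at any time from 8 on, and the mock line held between 517.2 and 612.9. The log2 change was 0.52 at time 8, 0.62 at time 24 (adjusted p 0.00177) and 0.49 at time 192 (SE 0.11, adjusted p 0.00313). Its other 3 probe sets changed by 0.21 to 0.34 at time 192, and the calls from time 24 on were lost without replicate 2 (0.45 at time 192, adjusted p 0.0704) and without probe sets of the _s_at and _x_at kinds, which can match several transcripts (0.29, adjusted p 0.367).

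POLR1H, the subunit for cleavage of the nascent RNA, rose little. It read 712.2, 666.1 and 689.6 at time 192, against 591.6, 540.3 and 596.4 at time 0, with no overlap, for a change of 0.26 (SE 0.08, adjusted p 0.0210), and the call was lost without any one of the replicates (adjusted p 0.0571 to 0.179). POLR1A, the largest subunit, read 120.4, 137.6 and 166.7 at time 192, against 98.1, 80.4 and 122.5 at time 0. These arrays overlapped, and its change of 0.51 missed the threshold (SE 0.26, adjusted p 0.169), with 0.51 to 0.56 over its 3 probe sets. POLR1F, of the stalk, changed by 0.25 (adjusted p 0.211) and POLR1E by 0.22 (adjusted p 0.227) at time 192, so that all 6 genes of polymerase I alone had a change above 0. At times 24, 48 and 96 the arrays of POLR1F lay wholly above time 0, with changes of 0.34, 0.30 and 0.31. These missed the threshold without a block (adjusted p 0.126 to 0.166) and were called with the replicate block (adjusted p 0.0318 to 0.0458) and the hybridisation batch block.

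The largest change of any member was in POLR3G, the paralogue of the pair known from pluripotent and tumour cells. It read 392.3, 344.9 and 294.0 at time 192, against 91.7, 77.3 and 67.4 at time 0. Between these it read 107.2, 142.2 and 105.5 at time 8 and 173.2, 157.4 and 160.3 at time 24. Time 48 gave 239.2, 228.2 and 158.7, and time 96 gave 299.4, 301.0 and 291.1. From time 8 every array lay above the 3 of time 0, and the mean went on increasing to the last time. The log2 change was 0.58 at time 8 (adjusted p 0.167, and 0.0393 with the replicate number as a block), then 1.06 at time 24 and 1.39 at time 48. By time 96 it was 1.93 and by time 192 it was 2.13 (SE 0.18, 4.37-fold, adjusted p 1.25e-07). The mock line changed by 0.58 at time 8 and by -0.14 at time 192, and it read 32.5 to 53.2 at its 7 times, below all 21 arrays of the MYCN line, including those at time 0. A fainter probe set of POLR3G changed by 1.47 at time 192, and the calls at times 96 and 192 held under all 17 alternatives run.

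POLR3GL, the alternative to POLR3G in the enzyme, went the other way. It read 183.5, 205.6 and 268.3 at time 192, against 280.6, 399.3 and 330.8 at time 0, and only at this time did all 3 arrays lie below all 3 of time 0. The change was -0.62 (SE 0.18, adjusted p 0.0129), after -0.43 at times 48 and 96, which missed the threshold (adjusted p 0.112 and 0.0853). With the replicate block both of these were called (adjusted p 0.0397 and 0.0303). The hybridisation batch block called that of time 96 (adjusted p 0.0447) and not that of time 48. The call at time 192 was lost without replicate 2 (-0.46, adjusted p 0.243). It was also lost when the first replicate of time 192 (-0.51) or replicate 2 of time 0 (-0.49) was left out alone. In the mock line POLR3GL read 533.7 at time 192 against 353.0 at time 0, a change of 0.60. The gene has a single probe set in the table.

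**Figure D3:**
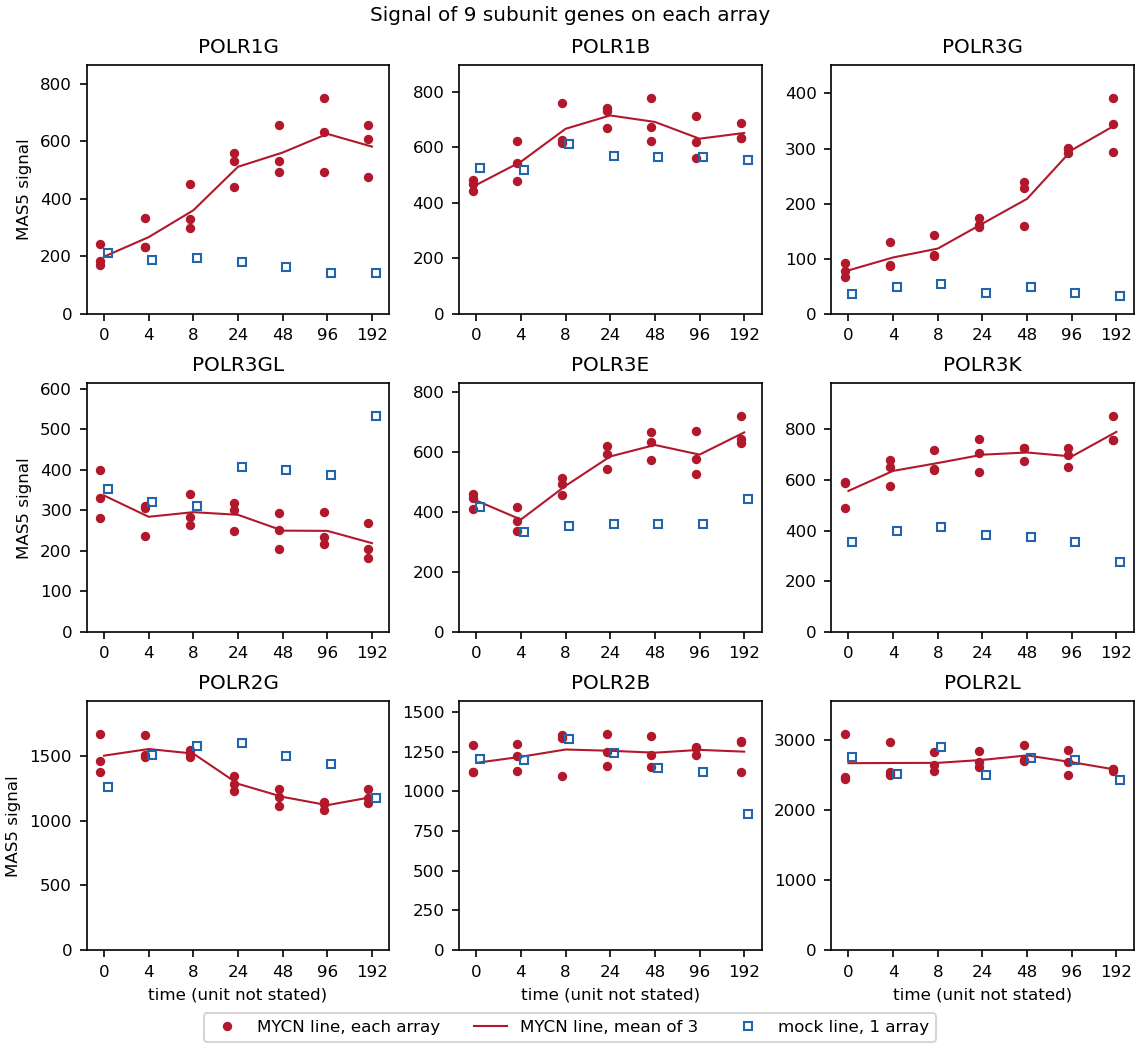
MAS5 signal (vertical axes, linear, from 0) of 9 subunit genes at 7 times (horizontal axes, unit not stated), with filled points for each array of the MYCN line, a line through the mean of 3 and open squares for the 1 mock array. POLR3G climbs to 294.0 to 392.3 at time 192 while POLR3GL drops to 183.5 to 268.3, and POLR2B and POLR2L, with log2 changes of 0.08 and -0.04, were not called at any time.

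Other polymerase III genes rose by smaller amounts. POLR3E, which pairs with POLR3D in a module that resembles the polymerase II factor TFIIF, read 721.3, 645.0 and 631.0 at time 192, against 446.3, 410.1 and 459.0 at time 0. From time 24 on its arrays did not overlap those of time 0, and the change at time 192 was 0.60 (SE 0.10, adjusted p 0.000261), with 0.61 from its next 2 probe sets. That call was lost as the mean of its probe sets (0.40, adjusted p 0.191) and without _s_at and _x_at sets (0.61, adjusted p 0.0555). The calls of POLR3E at times 24, 48 and 96 were lost in 8, 1 and 4 of 17 alternatives. POLR3K, which takes part in RNA cleavage and termination, read 758.4, 758.9 and 854.0 at time 192, against 591.7, 489.5 and 590.0 at time 0. It was called from time 24 on and its change at time 192 was 0.51 (SE 0.10, adjusted p 0.000628), but its other probe set, with a mean signal of 9.22, lay below the filter level and changed by 0.07. The calls of POLR3K at times 24, 48 and 96 were each lost without replicate 1 (0.31, 0.38 and 0.33), without replicate 2 (0.23, 0.25 and 0.22) and with equal array medians (adjusted p 0.158 to 0.276).

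POLR3A, the largest subunit, read 203.6, 190.8 and 247.5 at time 192, against 145.2, 137.0 and 135.2 at time 0. The 2 groups did not overlap, the change was 0.61 (SE 0.13, adjusted p 0.00206), and it had been 0.41 at time 96 (adjusted p 0.0309). The call at time 192 held in 16 of 17 alternatives and was lost as the mean of its probe sets (0.45, adjusted p 0.171). The call at time 96 was lost in 7 of 17. Among these were the fits without replicate 1 (adjusted p 0.0999), without replicate 2 (adjusted p 0.387) and with equal array medians (adjusted p 0.160). POLR3B, the partner of POLR3A at the active centre, read 281.3, 298.3 and 280.3 at time 192, against 252.7, 218.6 and 247.5 at time 0, a change of 0.26 (SE 0.09, adjusted p 0.0317). POLR3F, which with POLR3C and POLR3G or POLR3GL forms the trimer used in initiation, read 219.6 to 269.0 at time 192, against 158.8 to 210.3 at time 0, a change of 0.43 (SE 0.14, adjusted p 0.0239). The calls of POLR3B and POLR3F were both lost without replicate 2 (0.17 and 0.27), without replicate 1 (adjusted p 0.101 and 0.111) and with equal array medians (adjusted p 0.255 and 0.143), and that of POLR3B also without replicate 3 (adjusted p 0.0779). POLR3C (0.09) and POLR3D (0.15) were called at no time. Among the genes of the initiation trimer at time 192, POLR3G and POLR3F rose, POLR3GL fell and POLR3C did not pass the test.

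The pair of genes shared by polymerases I and III split. POLR1C and POLR1D together form the platform on which both enzymes assemble. POLR1C read 539.6, 473.8 and 405.2 at time 192, against 362.9, 291.6 and 341.1 at time 0, without overlap, and its change was 0.51 (SE 0.12, adjusted p 0.00336), with 0.64 from its other probe set. The call was lost without replicate 2 (0.41, adjusted p 0.134). POLR1D read 913.9, 862.2 and 775.0 at time 192, against 922.3, 797.9 and 954.6 at time 0, fully overlapping, with a change of -0.07 (adjusted p 0.570).

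Among the genes of polymerase II alone, POLR2G was the one called at the last times. It encodes a stalk subunit that binds the emerging RNA. It read 1241.3, 1170.8 and 1132.6 at time 192, against 1457.6, 1669.3 and 1376.6 at time 0, and all arrays from time 24 on lay below the 3 of time 0. The change was -0.42 at time 96 (adjusted p 0.000434), and -0.34 both before it, at time 48, and after it, at time 192 (SE 0.07, adjusted p 0.00199). The calls at times 48, 96 and 192 held in 14, 16 and 15 of 17 alternatives. With equal array medians each was lost (adjusted p 0.357, 0.142 and 0.234). Without replicate 2 the calls at time 48 (-0.22, adjusted p 0.228) and time 192 (-0.26, adjusted p 0.0889) were lost. That at time 48 was also lost without replicate 1 (-0.40, adjusted p 0.0648). The mock line moved through 1577.7 at time 8 and 1171.4 at time 192, against 1262.9 at time 0. POLR2D, the partner of POLR2G in the stalk, changed by -0.15 (adjusted p 0.146).

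POLR2I, which acts in RNA cleavage and proofreading, rose at time 48, where it read 654.6, 675.8 and 712.0, against 464.0, 505.3 and 590.6 at time 0 (log2 change 0.40, SE 0.11, adjusted p 0.0228). That call was lost in 7 of 16 alternatives, among them without replicate 1 (adjusted p 0.286), without replicate 2 (adjusted p 0.170) and with quantile normalization (adjusted p 0.0507). At time 192 its change of 0.30 missed the threshold (adjusted p 0.0560, and 0.00962 with the replicate block). The large subunits did not pass the test: POLR2A, whose tail coordinates RNA processing, changed by 0.17 (adjusted p 0.727) on signals of 65.5 to 197.7, and POLR2B by 0.08 (adjusted p 0.577). POLR2C, POLR2J, POLR2J2 and POLR2J4 lay between -0.01 and 0.16 at time 192, none called at any time.

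The 5 common subunits passed the test at no time with the brightest probe set, all arrays and no block. Their changes at time 192 were 0.18 for POLR2E, 0.45 for POLR2F, -0.09 for POLR2H, -0.11 for POLR2K and -0.04 for POLR2L. Without replicate 3, POLR2E was called at times 24, 48, 96 and 192, with changes of 0.39, 0.36, 0.38 and 0.31 (adjusted p 0.0135 to 0.0366), against 0.26, 0.26, 0.14 and 0.18 with all replicates, and POLR2L was called at time 48 (0.20, adjusted p 0.0490). POLR2F stood above the others and read 568.5, 509.7 and 528.8 at time 192, against 508.4, 271.9 and 437.7 at time 0, where the array of 271.9 stood apart from the other 2 (log2 change SE 0.18, adjusted p 0.0759, and 0.0478 with the replicate block). As the mean of its probe sets POLR2F was called at time 96 (1.27, adjusted p 0.0399), where a probe set with a mean signal of 2.33 enters. POLR2L read 2550.0 to 2591.4 at time 192, against 2444.1 to 3087.3 at time 0. Its slope over the time steps differed between the lines as the mean of its probe sets (0.13, adjusted p 0.0224). It also differed without _s_at and _x_at sets (0.25, adjusted p 0.0131). A fainter probe set, with a mean signal of 61.6, enters both, and with the brightest set the difference was 0.01 and not called. POLR1HASP stayed at 30.3 or less over all arrays and was called at no time.

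Slopes over the time steps compared the lines directly. Each line's log2 signal was fitted against the order of the 7 times, step 0 to step 6, and the slope of the MYCN line minus that of the mock line was tested over all 28 arrays. Of the 32 members, 10 had a higher slope in the MYCN line and 1 a lower one, where 11.2% of genes were higher and 12.8% lower (24% in either direction). By class these were 2 of 6 for polymerase I alone, 1 of 9 for polymerase II alone and 6 of 9 for polymerase III alone, of which 1 lower, 1 of the 2 shared by polymerases I and III, and 1 of the 5 common subunits. POLR3G differed by 0.41 per step (SE 0.05, adjusted p 1.31e-06), from a slope of 0.37 for the MYCN line against -0.04 for the mock line. POLR1G differed by 0.38 (SE 0.06, adjusted p 2.93e-05), with a slope of 0.28 for the MYCN line and -0.10 for the mock line. POLR3GL differed by -0.19 (SE 0.04, adjusted p 0.00213), with a slope of -0.09 for the MYCN line and 0.10 for the mock line.

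In the mock line alone the trend called 2 members, POLR1G (-0.10 per step, adjusted p 0.0488) and POLR1E (-0.09, adjusted p 0.0488), both lower, where 3.13% of genes were called, 1.61% higher and 1.52% lower. Both calls were lost without any one of the mock arrays of times 4 to 192, and they ended in 10 of 13 alternatives for POLR1G and 11 of 13 for POLR1E. POLR2B and POLR2F were called in the difference although neither was called at any time of the MYCN line; their mock signals at time 192, 860.2 and 290.1, were the lowest of their 7. Without the mock array of time 192, 4 members in place of 11 were called. These were POLR3G, POLR1G and POLR3E of the 11, and POLR2G in addition (-0.11, adjusted p 0.0139). The share of all genes called without this array is not given here. POLR3GL then differed by -0.15 (adjusted p 0.0594), and the other 7 also missed the threshold (adjusted p 0.0830 to 0.478). The call of POLR3E in the difference was lost in 6 of 18 alternatives, among them without the mock array of time 0 (0.064, adjusted p 0.285).

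**Figure D4:**
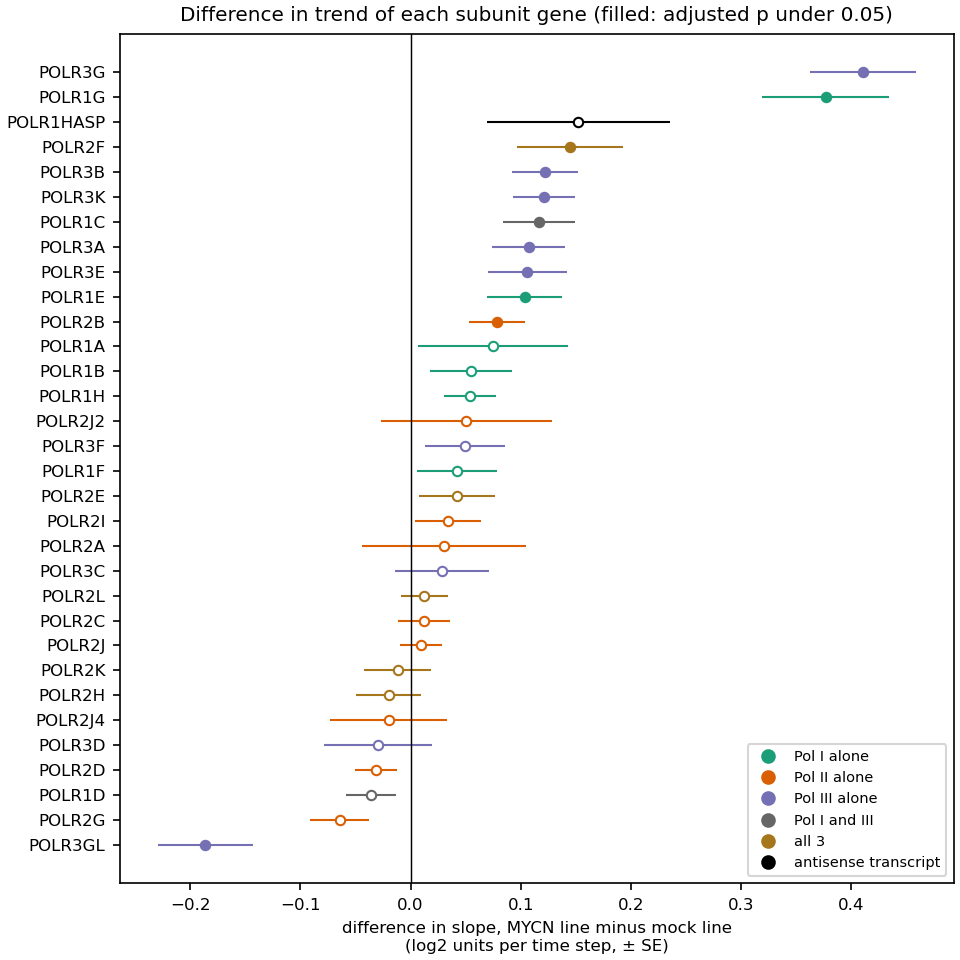
Difference in slope per time step, MYCN line minus mock line (horizontal axis, log2 units per step, bars ± SE), for the 32 genes ordered by value and coloured by polymerase class; filled points have an adjusted p under 0.05. POLR3G (0.41) and POLR1G (0.38) lie far to the right of the others, and POLR3GL (-0.19) is the one called point on the left.

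Genes of the machinery around the polymerases were read from lists chosen by role. Of 16 factors for polymerase III, 4 rose and 1 fell at time 192, with a median change of 0.10. Of all genes tested 25.8% were called, 11.6% higher and 14.1% lower, with a median of -0.03. The largest change among the 16 was that of GTF3A, the factor that recognises the gene for the shortest ribosomal RNA. GTF3A read 1614 ± 86.6 at time 192 against 817 ± 59.1 at time 0 (SD, n = 3 each, change 0.98, adjusted p 1.82e-08). GTF3C2, of the complex that binds transfer RNA promoters, rose by 0.41 (adjusted p 0.000923). Of 8 factors for polymerase I, 2 rose and 0 fell, with a median change of 0.02. Those that rose were TAF1A of the promoter selectivity complex (0.64, adjusted p 0.00229) and RRN3, which makes polymerase I competent to initiate (0.45, adjusted p 0.0161). In both lists the share called in either direction lay near that of all genes.

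The further lists are read against the same shares at time 192, 25.8% of all genes called, 11.6% higher and 14.1% lower. Of the 16 tested polymerase II initiation factors, 4 rose, among them GTF2H1 at 0.64 (adjusted p 0.000387) and GTF2E2 at 0.42 (adjusted p 0.00848), and the median change of the 16 was 0.11. Of 18 tested elongation and pausing factors, 1 rose and 3 fell, with a median change of -0.025 over the 18. The calls were TCEA1, a factor for RNA cleavage, at 0.30 (adjusted p 0.00116), against TCEA2, its relative, at -0.79 (adjusted p 0.00234), and CDK9, the kinase of the elongation factor P-TEFb, at -0.41 (adjusted p 0.00672), among the 3. Of 12 assembly and import factors 5 rose and 1 fell, with URI1 at 0.56 (adjusted p 0.000181), RPAP2 at 0.44 and UXT at 0.43. Of 6 genes for mitochondrial transcription 3 rose: the mitochondrial polymerase POLRMT read 542 ± 62.4 at time 192 against 301 ± 34.5 at time 0 (SD, n = 3 each; change 0.85, adjusted p 2.76e-05), TFAM rose by 0.59 and TFB2M by 0.39. CRCP, a polymerase III subunit whose symbol lies outside the rule, changed by 0.06 and was not called.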

How the data were processed

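Total RNA of 28 samples was hybridised to 1-colour Affymetrix arrays. Each probe set has a deposited linear intensity for each array; per the submitters' processing notes the authors used MAS5 and GCOS. Versions and a genome build are not given in the sources at hand. The mean after trimming 2% at either end was 100 to 101 on each array, and no further normalization was applied.

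Of 54675 probe sets, 41091 named 1 gene, 1801 several and 11783 none in the platform annotation. POLR2J3 and POLR2M appear there only on probe sets that name several genes. Before log2 was taken, 91 values of 0 or less were raised to 0.1. Genes reaching the 40th percentile of mean log2 (3.68, a signal of 12.8) were tested with limma 3.58.1 in R 4.3.3 (lmFit, eBayes with trend): 6 times against time 0 within the 21 MYCN arrays, the trend of the 7 mock arrays, and the difference in trend over all arrays, on 14, 5 and 24 residual degrees of freedom. The procedure was tested on simulated data. All times share the time 0 arrays.

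Each array's deviations from its group mean were correlated with those of the same-numbered time 0 array. At times 4, 8 and 192 the correlations were 0.129 to 0.368, and at times 24, 48 and 96 replicate 2 gave -0.0608 to 0.0549. Arrays of different numbers were not compared, and replicate 3 lies in the other inferred batch at every time. These values therefore cannot show whether the numbers pair the arrays. The main fits used group means without pairing, and the replicate block was an alternative. No 2 arrays held identical values. Alternatives covered the scaling, the choice of probe set, the filter, the pseudocount, blocks and left-out arrays. Members were all named; signals on each array are given for those called, in full for the 12 with the smallest F-test p, and at most 3 genes of each further list are named. The members, lists and named genes were chosen with earlier results of these data known.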

Additional observations from a re-analysis of the deposited data

Results flagged for a closer look

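The slopes of 11 members over the time steps differed between the MYCN line and the mock line by the limma interaction test over 28 arrays. The difference in log2 per step, MYCN line minus mock line, was 0.41 for POLR3G and 0.38 for POLR1G. It was 0.14 for POLR2F, 0.12 for POLR3B and 0.12 for POLR3K, 0.12 for POLR1C, 0.11 for POLR3A and 0.11 for POLR3E. It was 0.10 for POLR1E, 0.078 for POLR2B and -0.19 for POLR3GL. The slope of the MYCN line was 0.02 for POLR3B, 0.01 for POLR2B and 0.01 for POLR1E, against slopes of -0.10, -0.07 and -0.09 in the mock line. POLR2F had 0.07 in the MYCN line against -0.08 in the mock line, and POLR3GL -0.09 against 0.10, so for these 5 genes the slope of the mock line was the larger in size. The mock line has a single array at each time, so its spread rests on the fit of the trend.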

How the results depend on the processing

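Over 49 calls of single members and 832 alternatives, 625 kept the call, 205 ended it and 2 reversed the direction: POLR1H at time 48 read -0.025 as the mean of all its probe sets, most of them dim, and POLR3K at time 48 read -0.32 without _s_at and _x_at probe sets, which leaves a dim one. Adding 16 to the signal before log2, the replicate block and the hybridisation batch block ended 0 calls. Numbers of members called moved as follows. The share of all genes called in each setting is not given beside them, so a move need not be particular to the members. With equal array medians they were 0, 3, 5, 2 and 7 at times 8, 24, 48, 96 and 192, 5 by the F-test and 1 for the mock trend. With the mean of a gene's probe sets they were 0, 1, 4, 5 and 6 at those times, 5 by the F-test, 0 for the mock trend and, in the comparison of trends, 5. Without _s_at and _x_at probe sets they were 1, 3, 4 and 5 at times 8, 24, 48 and 96, and 1 for the mock trend. That 1 was POLR2L (-0.24 per step, adjusted p 0.0443), and the mock trend calls of POLR1G and POLR1E were both lost (adjusted p 0.0533 each). With no filter on dim genes they were 0 at time 8 and 0 for the mock trend, which quantile normalization took to 1. The replicate block and the hybridisation batch block both gave 8 at time 24. At times 4, 8 and 192 the replicate block called POLR3G at time 8 and POLR2I and POLR2F at time 192 in addition and changed no other call. The median change at time 192 of polymerase I alone was 0.40 with equal medians, 0.34 as the mean of probe sets, 0.29 without _s_at and _x_at sets and 0.35 with 16 added. That of polymerase II alone was -0.0083 as the mean of probe sets, and that of the 5 common subunits was 0.11 as the mean of probe sets and 0.084 without _s_at and _x_at sets. The cause of these moves was not tested, other than that fewer probe sets enter some of them.

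With a replicate or a single array left out, the numbers called ranged from 0 to 0 at time 4, 0 to 1 at time 8, 2 to 5 at time 24, 2 to 12 at time 48, 3 to 10 at time 96 and 5 to 13 at time 192. They ranged from 4 to 11 by the F-test, 0 to 2 for the mock trend and 4 to 11 in the comparison of trends. These counts too are given without the share of all genes called, so a loss need not be particular to the members. Without replicate 1 the counts were 3, 4 and 5 at times 24, 48 and 96 and 5 by the F-test; without replicate 2 they were 2, 2, 3 and 5 at times 24, 48, 96 and 192, 4 by the F-test and 6 for the difference; without the replicate 2 array of time 0 they were 3, 5 and 5 at times 24, 48 and 96. The mock trend called 0 without any one of the arrays of times 4 to 192. Class medians at time 192 ranged from 0.33 to 0.43 for polymerase I alone, -0.0090 to 0.12 for polymerase II alone, 0.27 to 0.52 for polymerase III alone, 0.13 to 0.34 for the pair shared by polymerases I and III, and -0.098 to 0.066 for the common subunits. Within the batch inferred for replicates 1 and 2 from the bioD spike, the comparison is the one without replicate 3; the mock line shares an inferred batch with replicate 3 alone. The dimmest members, POLR1HASP and POLR2J2, lie at signals where MAS5 values scatter widely.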

Other observations

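Probe sets of a member that was not called sometimes differed. For POLR1E the brightest probe set changed by 0.22 at time 192 and a fainter one by 0.63, with a mean signal of 134 for the fainter set. For POLR2C the brightest probe set changed by 0.16, and the faintest of its 3, with a mean signal of 92.7, by -0.48. For POLR1A all 3 probe sets changed by 0.51 to 0.56. Levels at time 0 also differed between the lines for some genes: POLR3K read 489.5 to 591.7 in the MYCN line against 354.2 in the mock line, and POLR3G 67.4 to 91.7 against 35.7.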
